A study of Gallus gallus with 6 samples.

Results

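The 100 genes described here had the clearest separation of Yaoshan (YS) ovaries above GYR ovaries in RNA-seq of 6 hens. For each gene, the lowest FPKM of the 3 YS ovaries plus 0.5 was divided by the highest FPKM of the 3 GYR ovaries plus 0.5, and the genes with the largest ratio were taken. FPKM gives the fragments assigned to a gene, relative to its transcript length and to all mapped fragments of the library. The ratio was computed for 21064 of 21164 genes, after the 100 genes with the highest mean FPKM had been left out. Of the 100 members, 94 were graded, with at least 1 GYR ovary at 0.5 FPKM or more, and 6 were near 0 in GYR, with all 3 GYR ovaries under 0.5 FPKM. The members were chosen for differing between the breeds, so their difference is a description and supports nothing by itself.

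Ovaries came from 3 YS hens, an indigenous Chinese breed, and 3 GYR hens, with 1 library per hen. GYR is a commercial cross whose sires are green-shell chickens with yellow feathers and whose dams come from YS males and recessive white feather layers, so GYR hens carry part of the YS genome. All hens were hatched in the same batch, received the same diet and were killed at the same age during lay. Vaccination followed local guidelines, and the study describes no other treatment. The ovary of a laying hen holds small follicles embedded in stroma, blood vessels and smooth muscle, together with a hierarchy of large yolky follicles. Its granulosa and theca cells make steroid hormones, and oocytes are recruited from the pool of small follicles. Visible follicles had been removed here, so the RNA came from the remaining tissue.

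The files list genes by Ensembl identifier and do not pair identifiers with gene symbols, and 0 of the 21164 identifiers matched the RefSeq gene table of 25635 genes. The genes are therefore given by identifier, with no function, position or sequence, and the ovarian cell type markers that would check the tissue label were not analysed here. The sample records name the ovary as tissue, whereas their extraction note speaks of retina. Relative depth was taken as the most frequent quotient of YS_1 over another library, among genes at 0.2 to 3 FPKM in both. It was 0.99 to 1.05 in the other YS libraries and 0.99 to 1.29 in the GYR libraries, against 1 for YS_1. FPKM are not fragment numbers, and transcript lengths and totals of assigned fragments were not used here, so no counting interval is given. Any 2 libraries differed in the FPKM of at least 19071 genes.

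The leading member was ENSGALG00000028770, with 29.5, 22.4 and 27.0 FPKM in YS_1, YS_2 and YS_3, against 1.21, 0.99 and 3.30 FPKM in GYR_1, GYR_2 and GYR_3. The lowest YS ovary lay 6.04 times above the highest GYR ovary after 0.5 was added to both. Its mean was 26.3 ± 3.58 FPKM in YS and 1.83 ± 1.27 FPKM in GYR (SD, n = 3 each). In limma, a linear model on log2(FPKM + 1) that pools the spread over genes, the YS minus GYR difference was 3.35 on the log2 scale (standard error 0.317), with an adjusted p = 0.0440 after Benjamini-Hochberg correction over 14918 genes. With the replicate number as a block, limma's adjusted p was 0.0764. In bulk ovary, fewer cells of a type and less RNA per cell cannot be told apart, here and for every gene that follows.

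Genes averaging at least 0.5 FPKM were tested. ENSGALG00000028770 was the only one higher in YS with an adjusted p under 0.05 in limma, which is 0.0067% of the 14918 genes tested. The same adjusted p of 0.0571 was given by limma to ENSGALG00000049052, ENSGALG00000052798, ENSGALG00000014908 and ENSGALG00000009596. The study applied an unadjusted p under 0.05 and an absolute log2 fold change above 1 to DESeq2 results. At the same cut-offs, limma on log2(FPKM + 1) gave 126 genes higher in YS, which is 0.845% of the genes tested. The methods differ, so this number is not set against that of the study. Of the 99 members tested, 62 met these criteria, and nothing is read from that share since the rule used the same ovaries. The remaining member, ENSGALG00000015453, was below the filter on low FPKM. An unadjusted p under 0.05 was found in limma for all 99, and for 3.03% of the genes tested in the same direction. Over the 99 members the median log2 difference was 1.20 (range 0.56 to 3.35), beside -0.10 over all 14918 genes. On this scale the change of weakly expressed genes comes out too small.

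**Figure D1:**
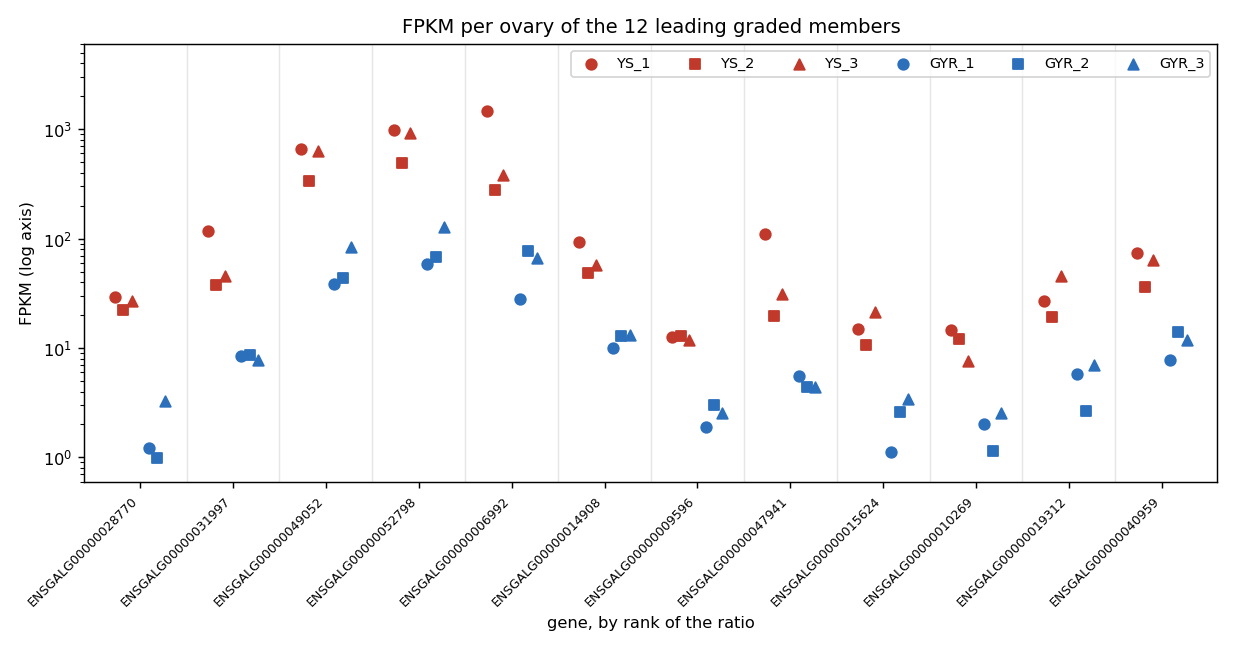
FPKM (log axis) of the 12 graded members with the largest ratio, with 1 point per ovary (YS red, GYR blue; circle, square and triangle for numbers 1, 2 and 3). The YS points of ENSGALG00000028770 sit between 22.4 and 29.5 FPKM and its GYR points between 0.99 and 3.30 FPKM, and YS_1 stands apart from the other YS ovaries in ENSGALG00000006992 and ENSGALG00000047941.

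A pair of abundant members moved together in all 6 ovaries. ENSGALG00000049052 had 659, 333 and 637 FPKM in YS_1 to YS_3, against 38.2, 43.4 and 83.6 FPKM in GYR_1 to GYR_3. ENSGALG00000052798 had 980, 491 and 921 FPKM in the YS ovaries, against 58.1, 68.0 and 128 FPKM in the GYR ovaries. In both genes YS_2 was the lowest YS ovary and GYR_3 the highest GYR ovary, and the breeds were well apart. The FPKM of ENSGALG00000049052 divided by that of ENSGALG00000052798 was 0.673, 0.679 and 0.692 in the YS ovaries and 0.657, 0.638 and 0.655 in the GYR ovaries. The SD of the log2 of this quotient over the 6 ovaries, with 0.5 added to each FPKM, was 0.0396. It was the smallest among the 4950 pairs of members, whose median SD was 0.605. The next pair had 0.0400, and 21 pairs were under 0.1. Whether ENSGALG00000049052 and ENSGALG00000052798 overlap or share reads is not given in the sources used here, so they may not be separate observations. Among the other members, they were also the genes most like ENSGALG00000028770 over the 6 ovaries. The Pearson r of log2(FPKM + 1) was 0.991 for ENSGALG00000049052 and 0.990 for ENSGALG00000052798, followed by ENSGALG00000007157 at 0.989. These values are a description over 6 ovaries, and they include the difference between breeds, for which all members were chosen. Genes outside the set were not compared.

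Other members were nearly level across the YS hens. ENSGALG00000009596 had 12.6, 12.9 and 11.9 FPKM in YS_1 to YS_3, against 1.88, 3.01 and 2.56 FPKM in GYR_1 to GYR_3. Its YS ovaries differed by a factor of 1.08, and every one of them was above every GYR ovary. ENSGALG00000004325 had 65.8, 66.0 and 64.3 FPKM in the YS ovaries, against 39.0, 42.8 and 35.5 FPKM in the GYR ovaries, a ratio of means of 1.67. ENSGALG00000006652 had 7.36, 7.17 and 7.16 FPKM in the YS ovaries, against 2.49, 4.92 and 3.89 FPKM in the GYR ovaries. Both were as steady in YS as any member, with the highest YS ovary 1.03 times the lowest, but their breeds were closer together. In 47 of the 100 members the highest YS ovary was less than 1.5 times the lowest, beside 39.97% of the 14918 genes tested. The rule ranks on the lowest YS ovary, so nothing is read from this share.

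ENSGALG00000009856 was the most abundant of the steady members, with 649, 725 and 762 FPKM in YS_1 to YS_3, against 311, 373 and 303 FPKM in GYR_1 to GYR_3. ENSGALG00000014908 had 93.6, 48.4 and 57.0 FPKM in the YS ovaries, against 10.1, 12.9 and 13.0 FPKM in the GYR ovaries. Here the GYR ovaries were close together and YS_1 was the highest of the YS ovaries. ENSGALG00000040959 had 73.9, 36.1 and 64.3 FPKM in the YS ovaries, against 7.77, 13.9 and 11.8 FPKM in the GYR ovaries, with YS_2 the lowest YS ovary. ENSGALG00000040260 had 509, 415 and 277 FPKM in the YS ovaries, against 134, 121 and 76.9 FPKM in the GYR ovaries, so that number 3 was the lowest hen of each breed. In ENSGALG00000019312 number 3 was instead the highest of each breed, with 27.1, 19.2 and 45.1 FPKM in the YS ovaries, against 5.84, 2.65 and 6.98 FPKM in the GYR ovaries.

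Smaller but separated levels were found in ENSGALG00000015624, with 15.0, 10.7 and 21.5 FPKM in YS_1 to YS_3, against 1.11, 2.62 and 3.40 FPKM in GYR_1 to GYR_3. ENSGALG00000010269 had 14.7, 11.97 and 7.62 FPKM in the YS ovaries, against 2.00, 1.15 and 2.53 FPKM in the GYR ovaries. ENSGALG00000007157 had 4.39, 4.2 and 4.82 FPKM in the YS ovaries, against 0.72, 0.63 and 1.85 FPKM in the GYR ovaries. In these genes the means differed by factors of 6.62, 6.04 and 4.19 in the order given, and GYR_3 was the highest GYR ovary in each.

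**Figure D2:**
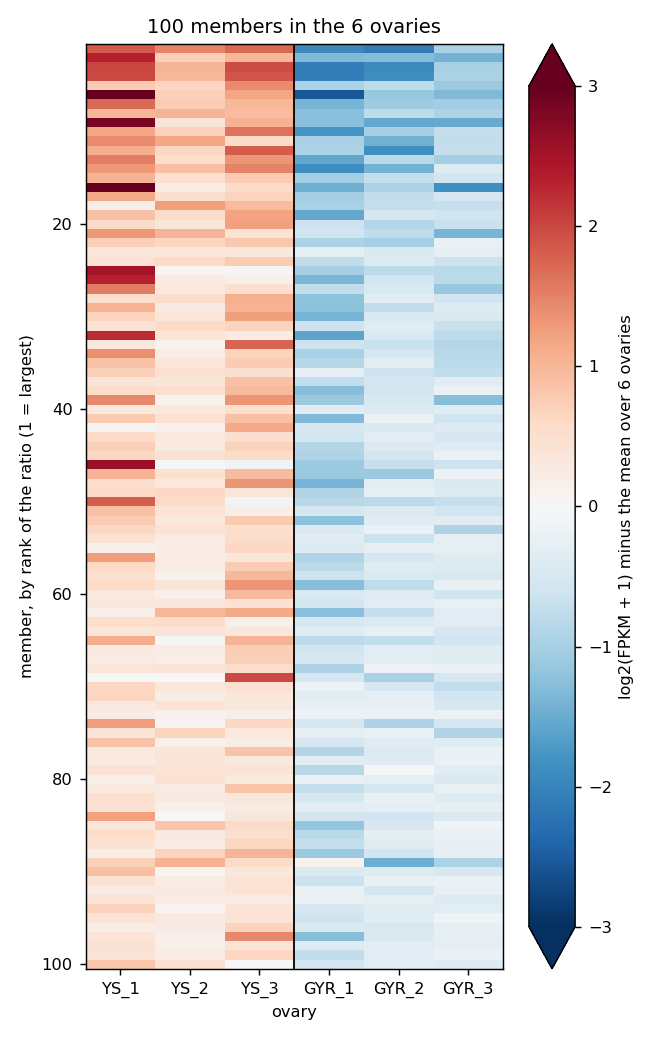
The 100 members (rows, by rank of the ratio) in the 6 ovaries (columns, YS left of the line and GYR right of it), coloured by log2(FPKM + 1) minus the mean of the gene over the 6 ovaries. Single rows are darkest in YS_1, and GYR_1 is the lowest GYR ovary in 62 of the 100 rows.

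In a further group, all YS ovaries were above all GYR ovaries but YS_1 stood far above YS_2 and YS_3. This group was set apart after the values were seen, as members in which YS_1 had at least 2 times the FPKM of both other YS ovaries. It held 11 of the 100 members, beside 8.62% of the 14918 genes tested. ENSGALG00000019063 had 701, 75.1 and 95.8 FPKM in YS_1 to YS_3, against 22.4, 32.8 and 17.0 FPKM in GYR_1 to GYR_3. ENSGALG00000006992 had 1463, 280 and 383 FPKM in the YS ovaries, against 28.1, 76.8 and 67.1 FPKM in the GYR ovaries. YS_1 alone therefore held most of the YS mean in both, and their ratios rested on YS_2, the lowest YS ovary.

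ENSGALG00000031997 belonged to the same group, with 118, 37.6 and 45.6 FPKM in the YS ovaries, against 8.42, 8.56 and 7.79 FPKM in the GYR ovaries. Its GYR ovaries were nearly equal, and its ratio of 4.21 was the second of all members. ENSGALG00000047941 had 110, 19.4 and 31.1 FPKM in the YS ovaries, against 5.54, 4.39 and 4.43 FPKM in the GYR ovaries. ENSGALG00000047383 had 18.6, 2.13 and 2.04 FPKM in the YS ovaries, against 0.50, 1.01 and 1.10 FPKM in the GYR ovaries, and ENSGALG00000009875 had 16.6, 3.27 and 2.91 FPKM in the YS ovaries, against 0.36, 1.39 and 1.01 FPKM in the GYR ovaries. In both of these GYR_1 was the lowest GYR ovary. The same was true of 6 of the 11 genes of the group, beside 62% of all members. In ENSGALG00000047941 GYR_1 was instead the highest GYR ovary. The ratio is lowered by a high value in any GYR ovary, so nothing is read from this share. Whether a high YS_1 went with a high GYR_1 in the group was not tested.

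With YS_1 left out, limma's log2 difference fell to 1.83 in ENSGALG00000019063, against 2.84 with all ovaries, and to 0.74 in ENSGALG00000047383, against 1.63 with all ovaries. Both stayed higher in YS, but the rule sets YS_2 and YS_3 above every GYR ovary, so this sign was fixed. The fall was built in as well, since the group was set apart for a high YS_1. For ENSGALG00000019063, limma's adjusted p was 0.561 with all ovaries and 0.0936 without YS_1. For ENSGALG00000047383 it was 0.679 with all ovaries and 0.258 without YS_1. No member had YS_2 at 2 times both other YS ovaries, beside 1.09% of the genes tested, and 4 members had YS_3 there, beside 2.46%. Among these was ENSGALG00000015150, one of the genes near 0 in GYR.

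**Figure D3:**
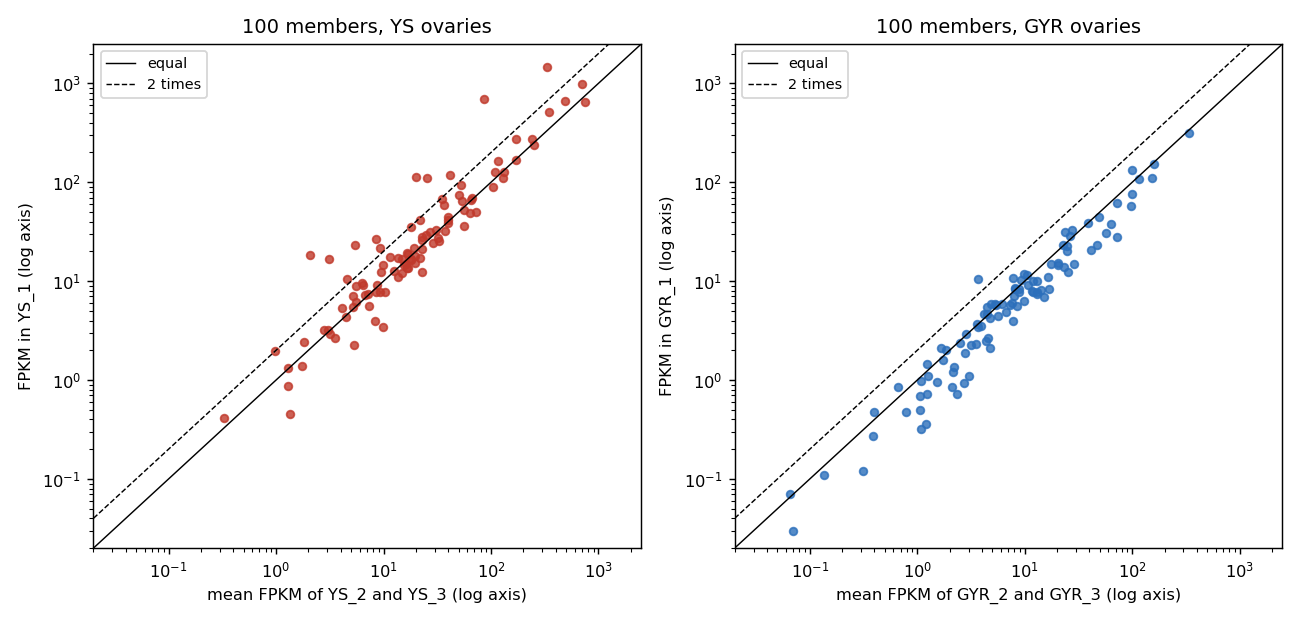
FPKM of the 100 members in hen 1 of each breed against the mean of hens 2 and 3 (both axes log; left YS, right GYR; solid line equal, dashed line 2 times). The YS panel holds 11 members in which YS_1 is at least 2 times both other ovaries, beside 8.62% of the genes tested. The GYR panel holds 1 in which GYR_1 is. The dashed line marks 2 times the mean of the other ovaries instead, so ENSGALG00000026263 lies above it in YS without belonging to the 11.

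The order of the hens within a breed was uneven over the members. YS_2 was the lowest YS ovary in 65 of the 100 members, beside 23.3% of the genes tested, and YS_1 the highest in 50, beside 42.3%. GYR_1 was the lowest GYR ovary in 62 members, beside 35.9% of the genes tested, and GYR_3 was the highest, ties included, in 50, beside 31.3%. When the breed mean was subtracted, YS and GYR hens of equal number correlated across all genes tested at 0.42 (number 1), 0.31 (number 2) and 0.48 (number 3). Over the members the values were -0.02, -0.15 and 0.28 in the same order. Genes are not independent replicates, and the rule picks on the lowest YS and the highest GYR ovary, so these are descriptions. The median range of log2(FPKM + 1) within a breed was 0.56 in YS and 0.46 in GYR over the members, and 0.58 in YS and 0.46 in GYR over all genes tested.

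In the 6 members near 0 in GYR, levels were low in YS as well. ENSGALG00000031211 had 2.68, 2.35 and 4.75 FPKM in YS_1 to YS_3, against 0.11 and 0.27 FPKM in GYR_1 and GYR_2, and it is listed at 0 in GYR_3. It ranked 5 of all members and is the clearest of the 6. ENSGALG00000034899 had 1.32, 1.27 and 1.30 FPKM in the YS ovaries, against 0.47, 0.33 and 0.47 FPKM in the GYR ovaries. ENSGALG00000002688 had 0.88, 0.97 and 1.59 FPKM in the YS ovaries, against 0.27, 0.38 and 0.39 FPKM in the GYR ovaries. Both ENSGALG00000034899 and ENSGALG00000002688 are separated by less than 1 FPKM, and the number of fragments behind such values was not computed here.

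ENSGALG00000015150 had 0.45, 0.56 and 2.15 FPKM in YS_1 to YS_3, against 0.03, 0.05 and 0.09 FPKM in GYR_1 to GYR_3, so that YS_3 supplied most of its YS mean. ENSGALG00000015453 had 0.41, 0.32 and 0.34 FPKM in the YS ovaries, against 0.07, 0.06 and 0.07 FPKM in the GYR ovaries. Both are low in every ovary, and 2 decimals leave few steps at these levels. A gene listed at or near 0 was not read as absent. With 0.1 in place of 0.5 in the ratio, 36 of the 100 chosen genes were near 0 in GYR, and with 1 there were 3, so the number of such genes is set largely by this choice.

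The last member inside the limit of 100 genes was ENSGALG00000026263, with 1.99, 1.31 and 0.66 FPKM in YS_1 to YS_3, against 0.12, 0.35 and 0.28 FPKM in GYR_1 to GYR_3 and a ratio of 1.36. Just above it was ENSGALG00000014970, with 238, 219 and 287 FPKM in the YS ovaries, against 109, 146 and 160 FPKM in the GYR ovaries. The first gene outside was ENSGALG00000010098, with 10.8, 3.82 and 6.08 FPKM in the YS ovaries, against 2.53, 1.87 and 2.67 FPKM in the GYR ovaries, and the next was ENSGALG00000041808, with 34.8, 22.8 and 23.6 FPKM in the YS ovaries, against 15.6, 16.6 and 13.3 FPKM in the GYR ovaries. The ratio was 1.37 at rank 99 and 1.36 at each of the 3 ranks after it, so no gap marks the edge of the set. It was at least 2 in 22 members and under 1.5 in 37, with a median of 1.57. The mean FPKM of a member was 17.7 in YS and 6.95 in GYR at the median over the 100 genes. The means of the breeds differed by a factor of at least 2 in 75 members. The share of all genes that did so was not computed, and the rule used the same ovaries, so nothing is read from this count.

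**Figure D4:**
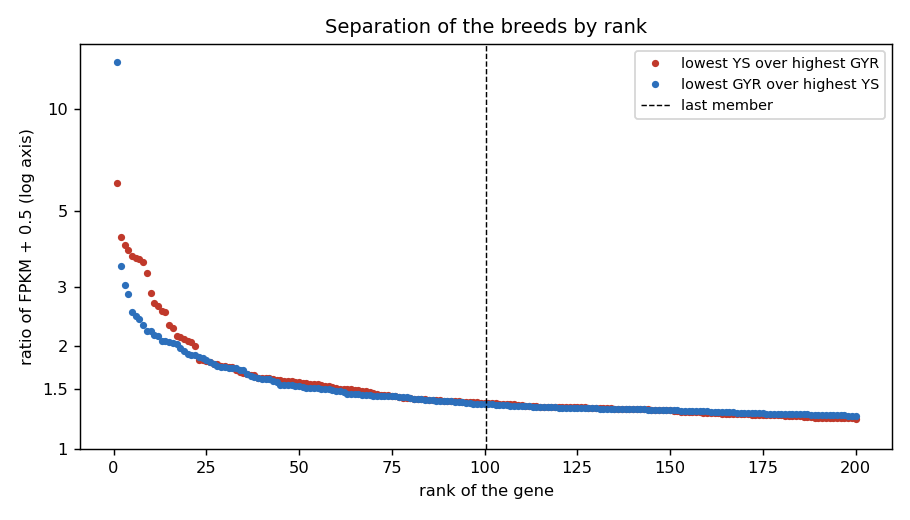
Ratio of FPKM + 0.5 (log axis) by rank for the leading genes in each direction, with lowest YS over highest GYR in red and lowest GYR over highest YS in blue, and a dashed line after the last member. The YS ratios run from 6.04 at rank 1 to 1.36 at rank 100, and the GYR ratios from 13.8 to 1.35.

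Every YS ovary was above every GYR ovary in 863 of the 21064 ranked genes (4.1%), from which the 100 members are the upper end. The opposite order was found in 1450 genes. This balance depended on the scale of the libraries. After rescaling by the median of their ratios, 1376 genes had every YS ovary higher and 1011 had every GYR ovary higher, and the median log2 difference over all genes moved to -0.01, against -0.10 as deposited. All 100 members kept every YS ovary above every GYR ovary under this scaling, and their ratios were larger in each of the 100. The scaling multiplies whole libraries and here moved YS upwards against GYR, so nothing is read from this. Of the members, 88 were again among the first 100 genes. At rank 10 the ratio was 2.88 for genes higher in YS and 2.22 for genes higher in GYR, and at rank 100 it was 1.36 and 1.35.

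The members made up 1.73%, 1.06% and 1.34% of all FPKM in the YS ovaries, against 0.369%, 0.474% and 0.432% in the GYR ovaries. The 5 members with the highest mean in YS were ENSGALG00000052798, ENSGALG00000009856, ENSGALG00000006992, ENSGALG00000049052 and ENSGALG00000040260. They accounted for 49.4%, 45.3% and 45.2% of the members' FPKM in the YS ovaries and for 31.7%, 31.2% and 30.1% in the GYR ovaries. The excess of the whole set in FPKM is therefore carried to a large part by a few abundant genes. Of the 100 most abundant genes that the rule leaves out, 1 had a ratio as large as that of the last member.

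Ovaries that took no part in choosing genes give a measure that is partly separate from the choice. The rule was applied to 5 ovaries at a time, and the 100 genes chosen were then looked up in the ovary left out. With YS_1 left out, 66 of the 100 genes lay above every GYR ovary in YS_1, beside 24% of all ranked genes. With YS_2 left out the number was 85, beside 18.3%, and with YS_3 left out it was 88, beside 20.2%. With GYR_1 left out, 91 of the 100 genes lay below every YS ovary in GYR_1, beside 18.2% of all ranked genes. With GYR_2 left out it was 93, beside 13.5%, and with GYR_3 left out it was 88, beside 12.5%. The 5 remaining ovaries are still shared between the choice and the count, so a high count is partly built in. For this reason a whole pair was left out as well.

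With 1 YS and 1 GYR ovary left out at a time, the count of interest was that of chosen genes with the YS ovary above the GYR ovary, neither of which had been used. YS_1 was above GYR_1 in 80 of the 100 genes (41.1% of all ranked genes), above GYR_2 in 63 (43.5%) and above GYR_3 in 58 (43.2%). YS_2 was above GYR_1 in 86 (40.2%), above GYR_2 in 83 (38.2%) and above GYR_3 in 71 (37.3%). YS_3 was above GYR_1 in 82 (38.2%), above GYR_2 in 83 (36.8%) and above GYR_3 in 85 (33.3%). The share of chosen genes was thus above that of all ranked genes in each of the 9 combinations. It was least so where YS_1 met GYR_3 or GYR_2. All ranked genes include those below the filter on low FPKM, and a tie counted as not above. This also holds for the counts with 1 ovary left out. The share among expressed genes alone was not computed, so the shares are not for like genes and nothing is read from their distance. Over the 100 chosen genes, the median log2 difference between the ovaries left out was 0.17 for YS_1 with GYR_3. It was 0.87 for YS_3 with GYR_3, the largest of the 9. No such median was computed over all ranked genes, so these values are not compared with each other. The 9 combinations share ovaries and genes, and no test was run on them.

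**Figure D5:**
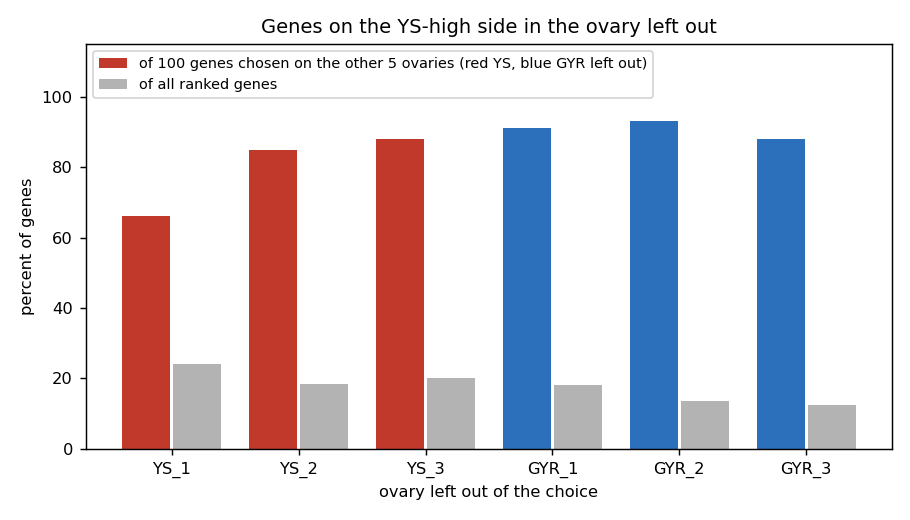
Percent of 100 genes chosen on 5 ovaries that lay on the YS-high side in the ovary left out (red for a YS ovary above every GYR ovary, blue for a GYR ovary below every YS ovary), and percent of all ranked genes that did so (grey). The lowest coloured bar is YS_1 at 66 and the highest is GYR_2 at 93, while the grey bars lie between 12.5 and 24. The remaining ovaries serve both the choice and the count, so the coloured bars are partly built in. The grey bars include genes below the filter on low FPKM, so nothing is read from the distance.

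Single ovaries decided part of the membership. Of the 100 members, 39 were again among the first 100 genes in each of the 6 rankings that left out 1 ovary, and 10 were in none of them. Without YS_1, 45 of the members were chosen again, the lowest of the 6 values, and without GYR_1 it was 76, the highest. ENSGALG00000028770, ENSGALG00000031997, ENSGALG00000014908, ENSGALG00000009596 and ENSGALG00000031211 were in all 6 rankings. Leaving out an ovary can only keep or raise the ratio of a gene. The ratio at rank 100 was at most 1.66 in these rankings. Members with a larger ratio on all ovaries, these genes among them, could not drop out, so nothing is read from their return.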

How the data were processed

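Total RNA of 3 YS and 3 GYR ovaries was sequenced after poly(A) selection, 1 library per hen. The authors computed FPKM of each gene and deposited them with 2 decimals, unpooled, with no filter stated. The study's methods name fastp 0.19.3, HISAT2 2.1.0 and the chicken annotation GRCg7b, whereas the submitters' processing notes name fastp, Bowtie2 2.0.0.5, TopHat2 2.0.0, StringTie 2.2.0 and GRCg6a, and which pipeline made the files was not settled. In 5 libraries 3458 rows without identifier, with the same values in each and 1.85% to 2.03% of the summed FPKM, were left out.

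Groups and replicate numbers come from the sample titles. Whether hens of a number share anything is not stated, but deviations of same-numbered ovaries from their breed mean correlated above 0.1 for every number, so fits with the number as a block stand beside the unblocked ones. The 14918 genes averaging 0.5 FPKM or more were tested on log2(FPKM + 1) with limma 3.58.1 (trend, two-sided, no covariate) in R 4.3.3, with Benjamini-Hochberg adjustment. Rankings used Python 3.11.15, numpy 2.4.6 and pandas 2.3.3, and figures matplotlib 3.10.9. The fit was also run on simulated data. These had independent ovaries and no effect of the replicate number, so they do not show whether the fit holds here. The 100 abundant genes left out were always those over all 6 ovaries.

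The members, the lists and the tests were chosen with earlier results of these data known. Named were the 12 graded members and all members near 0 in GYR with the largest ratio, the 5 with the highest YS mean, those with an adjusted p under 0.05, the genes on either side of the limit, the 3 steadiest and 3 least steady in YS, and the 3 most like the leading member. Gene lists by symbol could not be used, since no identifier matched the RefSeq table. The study's primer list gives symbols without these identifiers, and its other supplementary tables read here list genes by identifier alone. Alternatives were a pseudocount of 0.1, no filter, robust variance, the block, median-of-ratios scaling, 0.1 or 1 added in the ratio, keeping the abundant genes, a limit of 1 FPKM for near 0, and leaving out each ovary. The choice on some ovaries and count in others was added after the data were seen.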

Additional observations from a re-analysis of the deposited data

How the results depend on the processing

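The 26 named genes with a test were higher in YS in all 286 values from the 11 alternative fits. The rule sets every YS ovary above every GYR ovary, so this sign was fixed in the fits on the deposited FPKM. Rescaling moved whole libraries, YS upwards against GYR, so the sign after it tests nothing either. The adjusted p-value of ENSGALG00000028770 in limma lay between 0.0101 and 0.271 over these fits and was 0.05 or more in 8 of them. In limma, 0 genes higher in YS had an adjusted p under 0.05 with a pseudocount of 0.1, without the filter or with the block. The members therefore numbered 0 as well. At an unadjusted p under 0.05, limma gave 443 of 14918, 506 of 20508 and 771 of 14918 genes in that order. Of the members, 99 of 99, 98 of 100 and 98 of 99 had an unadjusted p under 0.05 in limma. Nothing is read from these shares, since the rule used the same ovaries. With each ovary left out in turn, 0 to 4 genes and 0 to 4 members reached an adjusted p under 0.05 in limma. There were 3 genes and 2 members without YS_1 and 4 genes without GYR_3. The number of genes higher in YS by limma at the study's cut-offs, 126, was 78 to 180 with an ovary left out, lowest without GYR_1. Those higher in GYR, 129, were 278 with a pseudocount of 0.1, 82 after median-of-ratios scaling, and 139 to 489 with an ovary left out, highest without YS_1 and 262 without GYR_2. Of the members, 53 to 67 met the criteria with an ovary left out, and 45 to 76 were chosen again. Genes near 0 in GYR, 6 of the 100 members, were 36 of the 100 genes chosen with 0.1 added in the ratio and 3 with 1. They were 10 to 16 of the 100 genes chosen with an ovary left out. Where that was a GYR ovary, only the remaining GYR ovaries had to be under 0.5 FPKM. The causes were not tested. Fragment numbers were not computed from FPKM, so the counting error of members under 1 FPKM is not given.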
